A study of Rattus norvegicus with 18 samples.

Results

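In bladders of rats with a transected spinal cord, 165 genes were read more often in detrusor and less often in mucosa than in the same tissues of uninjured rats, and this set of genes is described here. It was chosen by a rule on read counts scaled to a library total of 1000000 (CPM). In detrusor, the lowest SCI-vehicle library had to lie above the highest Control library, and in mucosa the highest SCI-vehicle library had to lie below the lowest Control library. A gene also needed a level above 1 CPM in 3 or more of the 18 libraries, and its mean levels in both Control tissues, with 0.5 CPM added, had to lie within 16-fold of each other. Of the 32754 genes listed, 15740 passed the filter on low values, 15405 of these were within the limit between the tissues, and 165 met the whole rule. Because the Control and SCI-vehicle libraries chose these genes, their differences between those groups are given as a description. Counts of members called in those comparisons are tilted by the choice and are not used as support. The SCI-inosine libraries entered only the filter on low values and had no part in the comparison of ranges.

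The samples were detrusor and mucosa of wild-type male Sprague Dawley rats, which were 6 to 7 weeks old and weighed about 250 g at surgery. SCI-vehicle and SCI-inosine rats had a complete transection of the spinal cord at T8 and then received daily intraperitoneal injections for 8 weeks, either of inosine at 225 mg/kg or of the same volume of vehicle, 12 mM sodium bicarbonate at pH 9.2. Control rats had no injury and no treatment, so the SCI groups share the transection and the injections and no group received inosine without an injury. Each of the 6 groups of tissue and condition gave 3 libraries, all labelled as batch 1, and the labels do not state which detrusor and mucosa samples came from the same rat.

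The detrusor is the smooth muscle layer that contracts to empty the bladder. The mucosa lines the lumen and consists of the urothelium, a barrier that also senses filling, and of the lamina propria beneath it with fibroblasts, vessels and nerve endings. After an injury above the sacral cord the bladder loses the coordinated control of its muscle and outlet, and its wall thickens. Inosine is a purine nucleoside that arises from the breakdown of adenosine.

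The authors deposited read counts by Ensembl rat identifier, and it gives no gene names beside them. The reference table given for names held 0 Ensembl identifiers and so matched 0 of the genes. The members are therefore described by their levels and patterns, 2 of them are named by identifier, and no role, sequence, list of pathway genes or cell type marker is given. Without markers, the labelled tissues were checked only through genes that differ between the Control tissues themselves. Near-identical gene copies, overlapping genes and antisense genes among the members could not be marked, and their counts are uncertain. In tissue samples such as these, fewer cells of a type and less RNA per cell cannot be told apart.

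Total counts per library ranged from 3255012 to 6810496, with a median of 5030414. Replicate 2 of SCI-inosine detrusor detected 14126 genes, fewer than the 16475 to 17842 of the remaining detrusor libraries. For each library, the median distance moved from the level of its own tissue in Control toward that of the other tissue was computed over genes with more than 50 CPM and more than 4-fold higher levels in the other tissue, 519 for mucosa and 222 for detrusor. Detrusor SCI-vehicle replicate 1 had moved 21.5% of the way to mucosa, replicates 2 and 3 had moved 1.9% and 1.23%, and the SCI-inosine detrusor libraries had moved 3.16%, 9.68% and 8.16%. The mucosa libraries lay between -7.98% and 15.1% of the way to detrusor, and the highest value was in SCI-inosine replicate 1.

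In detrusor, SCI-vehicle libraries did not overlap with Control and were higher for 1733 of the 15405 genes (11.2%), and in mucosa they were lower without overlap for 924 (6%). Both held together for the 165 members (1.07%), which is the rule itself. The opposite combination, lower in detrusor and higher in mucosa, was met by 79 genes. A shift up in both tissues was met by 182 genes and a shift down in both by 79.

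Among the members, 152 had more than 1 CPM in all 18 libraries and 116 had a mean count of at least 100. At the lower end, 6 members had a mean count under 10 and 9 had a count of 0 in at least 1 library. The mean count over the libraries ranged from 2.17 to 9491 with a median of 200. The distance between the SCI-vehicle and Control ranges was often small. Its median was 0.15 on the log2 scale in detrusor and 0.11 in mucosa, and it was under 0.1 for 56 and 79 members. The member nearest the detrusor boundary had 17.87 CPM in the lowest SCI-vehicle library against 17.85 in the highest Control library, and the nearest gene outside had 23.88 against 23.89. In mucosa the nearest member had 105.2 CPM in the highest SCI-vehicle library against 105.3 in the lowest Control library, and the nearest gene outside had 30.62 against 30.61. When counts were scaled by TMM, edgeR's normalisation for library composition, the rule took 142 genes, 109 of them among the 165, and with DESeq2 size factors 147 genes, 111 of them among the 165. The largest difference between the Control tissues among members was 12.2-fold, and the nearest genes beyond the limit differed 17.1-fold and 18.5-fold.

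Together the 165 genes held a larger share of all counts in Control mucosa than in Control detrusor, and the order was the opposite in SCI-vehicle rats, whose libraries were part of the choice. In detrusor, the share was 1.26%, 1.29% and 1.59% in the Control libraries and 1.98%, 2.06% and 2.3% in the SCI-vehicle libraries. In mucosa, it was 2.04%, 2.31% and 2.11% in Control and 1.56%, 1.51% and 1.64% in SCI-vehicle. With inosine the share was 1.71%, 2.17% and 2.04% in detrusor and 1.57%, 1.94% and 1.98% in mucosa, so SCI-inosine libraries lay above all Control libraries in detrusor and below all of them in mucosa, and in both tissues they overlapped with SCI-vehicle. The library with the lowest share was replicate 1 in both SCI-inosine groups.

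**Figure D1:**
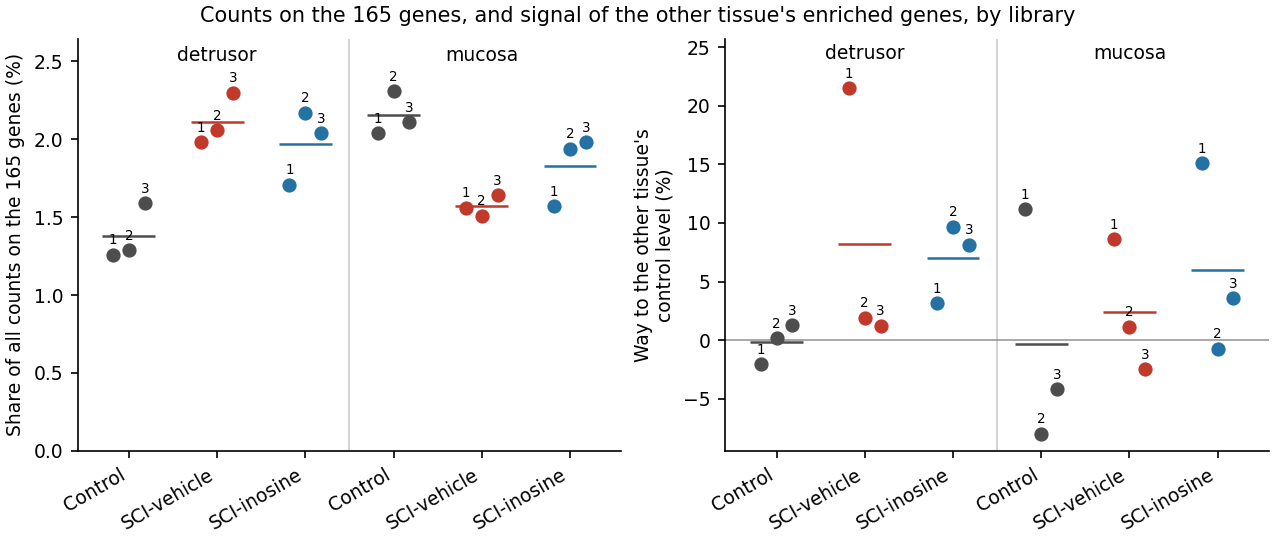
Share of all counts that fell on the 165 genes (left, %) and median way to the Control level of the other tissue over the genes enriched there (right, %), for each of the 18 libraries with its replicate number. Horizontal lines are group means. Detrusor shares run from 1.26% to 1.59% in Control and from 1.98% to 2.3% in SCI-vehicle, and mucosa shares from 2.04% to 2.31% and from 1.51% to 1.64%, in the directions that the rule for the genes fixes. On the right, detrusor SCI-vehicle replicate 1 stands apart at 21.5%.

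The median level of the members was 5.37, 5.31 and 5.38 log2(CPM + 0.5) in the 3 SCI-vehicle detrusor libraries, against 4.72, 4.76 and 4.82 in Control detrusor. The rule required every one of these SCI-vehicle libraries to be high, so their likeness says nothing about the part of the 21.5% in replicate 1, which was not tested. In mucosa the median was 5.61, 5.76 and 5.72 in Control and 5.32, 5.21 and 5.26 in SCI-vehicle. With inosine it was 5.04, 5.53 and 5.28 in detrusor and 5.23, 5.53 and 5.5 in mucosa. SCI-inosine replicate 1 was the lowest of its group for 111 members in detrusor and for 108 in mucosa. That mucosa library was also the one with 15.1% of the way to detrusor, whereas the detrusor library had 3.16% of the way to mucosa. The part of this in the members' levels was not tested. Replicate 2 of SCI-inosine detrusor, the library with only 14126 genes detected, was the highest of its group for 92 members. Its part was not tested either.

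The median difference of the 165 members between SCI-vehicle and Control, on the log2(CPM + 0.5) scale, was 0.64 in detrusor (range 0.13 to 2.05) and -0.49 in mucosa (range -1.98 to -0.09). Over the 15405 genes, the medians were 0.06 and 0.05. The difference was larger in detrusor than in mucosa for 115 members. A difference beyond 2-fold was found for 23 members in detrusor, for 12 in mucosa and for 6 in both. By edgeR's quasi-likelihood test over all 15740 genes, 2 members and 12 genes in all (0.0762%) had an adjusted p-value under 0.05 in detrusor, and 99 members and 13% of all genes had an unadjusted p-value under 0.05. DESeq2 called 30 members and 2.13% of all genes there, and edgeR without a filter on low counts called 18 members and 0.807%. The 2 calls fell to 0, with 0% of all genes, without detrusor Control replicate 1 or 2 or SCI-vehicle replicate 2. They fell to 1 without Control replicate 3 (0.0318% of all genes) or SCI-vehicle replicate 3 (0.0127%). In mucosa the same test called 0 members and 0 genes (0%) after adjustment, with 123 members and 10.2% of all genes at an unadjusted p-value under 0.05, while DESeq2 called 20 members and 0.515% of all genes. These counts rest on the libraries that chose the members, and nothing is read from them.

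The largest difference in detrusor was that of ENSRNOG00000000525, which was also among the 6 members beyond 2-fold in both tissues. Its level in detrusor was 122, 116 and 158 CPM in Control against 428, 534 and 696 CPM in SCI-vehicle. In mucosa it was 142, 153 and 113 CPM in Control against 59.2, 82.6 and 44.1 CPM in SCI-vehicle. Its levels in both Control tissues overlapped, whereas in SCI-vehicle rats every detrusor library lay above every mucosa library.

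With inosine, ENSRNOG00000000525 stood apart from the other libraries in different ways in each tissue. The SCI-inosine detrusor libraries had 373, 367 and 473 CPM, above all Control libraries and overlapping with SCI-vehicle. The SCI-inosine mucosa libraries had 155, 116 and 116 CPM, above all SCI-vehicle libraries and overlapping with Control. In detrusor its log2 fold change from Control was 1.51 ± 0.22 (SE, n = 3 per group, adjusted p = 0.0336, edgeR), against the same Control libraries that chose it.

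On the log2(CPM + 0.5) scale, ENSRNOG00000019472 had the largest difference when each member was judged by the smaller of its 2 differences. This rank depends on the scale. In the edgeR fits its log2 fold changes were 1.47 in detrusor and -1.12 in mucosa, against 2.03 and -1.2 for ENSRNOG00000000525. In detrusor it had 9.31, 8.44 and 10.7 CPM in Control rats, 30.3, 25.9 and 25.5 CPM in SCI-vehicle and 17.2, 17.3 and 24.5 CPM in SCI-inosine. In mucosa it had 13.3, 8.17 and 7.82 CPM in Control rats, 5.03, 7.44 and 1.32 CPM in SCI-vehicle and 5.46, 5.22 and 3.4 CPM in SCI-inosine. In detrusor the SCI-inosine libraries lay between the Control and SCI-vehicle libraries without overlap with either, and in mucosa they lay below all Control libraries and within the SCI-vehicle range. Its lowest count in a library was 5, so the mucosa values rest on few reads.

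**Figure D2:**
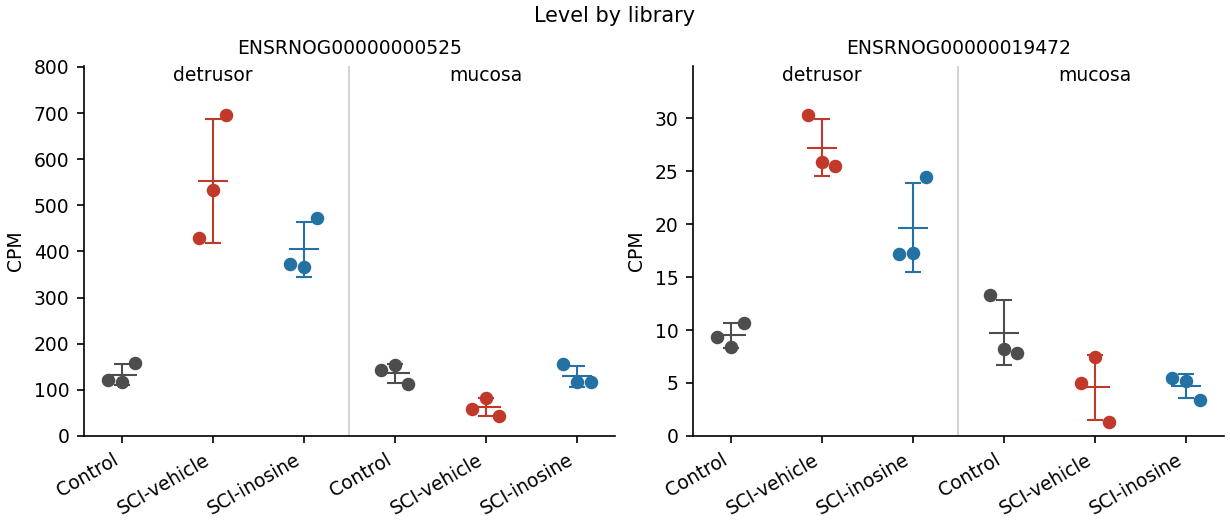
Level (CPM, linear axis from 0) of ENSRNOG00000000525 and ENSRNOG00000019472 in each library, with the mean and SD of the 3 libraries of a group. In detrusor SCI-inosine libraries of both genes lie above Control, and in mucosa those of the first lie at 116 to 155 CPM and overlap with Control, while those of the second stay at 3.4 to 5.46 CPM, below it.

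The other 4 members beyond 2-fold in both tissues covered a wide range of levels. The most abundant of them had 74.7, 82.7 and 141 CPM in Control detrusor against 177, 215 and 221 in SCI-vehicle, and 159, 179 and 127 CPM in Control mucosa against 60.4, 126 and 48 in SCI-vehicle. Its SCI-inosine libraries had 124, 241 and 253 CPM in detrusor, overlapping with both other groups, and 89.5, 105 and 95.2 CPM in mucosa, below all Control libraries. The least abundant had 2.24, 1.78 and 3.41 CPM in Control detrusor against 9.24, 5.69 and 7.3 in SCI-vehicle, and 27, 35.5 and 36.2 CPM in Control mucosa against 13.4, 16.9 and 12.9 in SCI-vehicle. In SCI-inosine rats it had 3.23, 5.83 and 6.98 CPM in detrusor and 23.1, 16.9 and 26.5 CPM in mucosa, below all Control libraries in mucosa.

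The most abundant members had smaller differences. The highest mean level belonged to a gene with 1231, 1433 and 1697 CPM in Control detrusor and 1910, 1851 and 1995 CPM in SCI-vehicle detrusor. In mucosa it had 2210, 2622 and 2216 CPM in Control against 1733, 1780 and 2092 CPM in SCI-vehicle. With inosine it had 1458, 1882 and 2012 CPM in detrusor, overlapping with both other groups, and 1720, 2201 and 2007 CPM in mucosa, below all Control libraries. The second most abundant member kept both sides with inosine. It had 614, 450 and 579 CPM in Control detrusor, 1021, 981 and 964 CPM in SCI-vehicle and 1156, 883 and 898 CPM in SCI-inosine. In mucosa it had 1089, 1043 and 1095 CPM in Control rats, 562, 588 and 757 CPM in SCI-vehicle and 649, 813 and 813 CPM in SCI-inosine. Both SCI groups thus lay beyond Control in either tissue and overlapped with each other.

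On the CPM scale, most members, like most genes, were higher in mucosa in uninjured rats. In Control rats the mean level was higher in mucosa for 139 of the 165 (84.2%), against 77.3% of all 15405 genes. On the TMM scale the order was less one-sided. The median difference between the Control tissues was 0.28, against 0.83 in the same fit with library totals. With TMM, 29 members (17.6%) were called higher in detrusor, against 21.2% of all genes, and 62 (37.6%) higher in mucosa, against 23.3%. On the CPM scale, more than 2-fold higher levels in mucosa were found for 66 members, levels within 2-fold for 98 and more than 2-fold higher levels in detrusor for 1, against 29.6%, 64.1% and 6.32% of all genes. The 66 members of the first kind had a median difference between SCI-vehicle and Control of 0.75 in detrusor and -0.53 in mucosa, and the 98 of the second kind 0.5 and -0.43, all on the log2(CPM + 0.5) scale. The single member that was more than 2-fold higher in detrusor had 2.42, 2.76 and 4.39 CPM in Control detrusor and 0.429, 1.24 and 0.447 CPM in Control mucosa. It had 5.7, 4.43 and 5.47 CPM in SCI-vehicle detrusor and 0.24, 0 and 0.264 CPM in SCI-vehicle mucosa, and in mucosa these values stand for single reads.

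In SCI-inosine rats most members lay on the same sides of Control as in SCI-vehicle rats. The mean level was above Control in detrusor for 156 members (94.5%, against 57.8% of all genes) and below Control in mucosa for 152 (92.1%, against 52.5%), and both held for 143 (86.7%, against 30.3%). The median difference from Control was 0.49 in detrusor (range -0.41 to 1.81) and -0.26 in mucosa (range -1.17 to 0.43), on the log2(CPM + 0.5) scale, against medians of 0.07 and -0.01 over all genes. These comparisons share the Control libraries with the choice of the members. The distances of SCI-vehicle from Control were part of that choice, so their size cannot be set against those of SCI-inosine.

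Without overlap between libraries, SCI-inosine detrusor lay above Control for 77 of the 165 members (46.7%), against 11.8% of all genes. SCI-inosine mucosa lay below Control for 51 (30.9%), against 6.05%. The Control libraries in these counts chose the members, which tilts the counts upward. Both sides were kept by 26 members (15.8%), against 0.649% of all genes, the detrusor side only by 51, the mucosa side only by 25 and neither by 63. Scaling by TMM changed the 26 to 17, and DESeq2 size factors to 16. Leaving out detrusor SCI-inosine replicate 1 changed the 77 to 120 and the 26 to 40, and without a library such counts can only stay or rise.

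**Figure D3:**
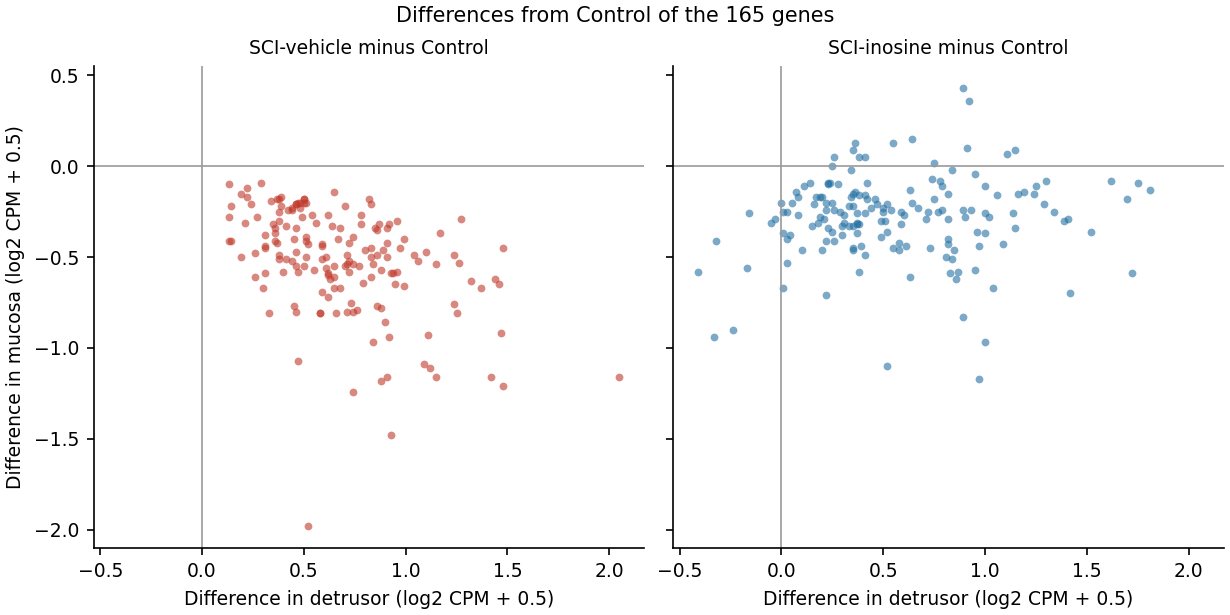
Difference from Control of the group means of the 165 genes on the log2(CPM + 0.5) scale, in detrusor (horizontal) and mucosa (vertical), for SCI-vehicle (left, the comparison that chose the genes) and SCI-inosine (right), 1 point per gene. All points on the left lie in the lower right part by the rule, and on the right 143 of 165 lie there, with a median of 0.49 in detrusor and -0.26 in mucosa.

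Among the 26 members that kept both sides, one had a larger difference in mucosa with inosine than without. It had 16.8, 28.2 and 29.3 CPM in Control detrusor, 33.8, 48.9 and 56.4 CPM in SCI-vehicle and 31.7, 68.2 and 49.8 CPM in SCI-inosine. In mucosa it had 19.1, 23.8 and 21.4 CPM in Control rats, 10.8, 13.1 and 10.8 CPM in SCI-vehicle and 9.62, 9.22 and 8.75 CPM in SCI-inosine, which did not overlap with SCI-vehicle. Another had 27.8, 31.6 and 57.8 CPM in Control detrusor, 61.5, 105 and 106 CPM in SCI-vehicle and 62, 123 and 131 CPM in SCI-inosine. In mucosa it had 39.7, 57.2 and 48.3 CPM in Control rats, 22.5, 35.4 and 27.7 CPM in SCI-vehicle and 30.9, 28.9 and 27.9 CPM in SCI-inosine. In this gene both SCI groups overlapped with each other in either tissue.

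By edgeR's quasi-likelihood test of SCI-inosine against Control, 3 members, all higher, had an adjusted p-value under 0.05 in detrusor, among 46 genes in all (0.292%), and 71 members and 13.6% of all genes had an unadjusted p-value under 0.05. DESeq2 called 21 members and 2.22% of all genes, and edgeR without a filter on low counts called 11 members and 0.802%. Besides ENSRNOG00000000525, the 3 members called by edgeR were 2 genes that were over 2-fold higher in Control mucosa. The first had 27.2, 36.3 and 40 CPM in Control detrusor, 101, 75 and 117 CPM in SCI-vehicle and 74, 149 and 127 CPM in SCI-inosine, and its log2 fold change was 1.64 ± 0.24 (SE, n = 3 per group, adjusted p = 0.0336, edgeR). The second had 14.3, 13.5 and 15.4 CPM in Control detrusor, 26.9, 15.7 and 26.3 CPM in SCI-vehicle and 33, 45.1 and 40 CPM in SCI-inosine, and its log2 fold change was 1.33 ± 0.21 (SE, n = 3 per group, adjusted p = 0.0382, edgeR). It was one of 6 members (3.64%, against 5.7% of all genes) whose SCI-inosine detrusor libraries all lay above SCI-vehicle. The number of members called fell to 0, and the share of all genes to 0%, without detrusor Control replicate 1 or 2 or SCI-inosine replicate 2 or 3. Without SCI-inosine replicate 1 the calls rose to 9 members and to 0.635% of all genes. In mucosa the test called 0 members and 0 genes (0%) after adjustment. There 40 members and 5% of all genes had an unadjusted p-value under 0.05 by this test, while DESeq2 called 1 member and 0.108% of all genes. The Control libraries in the tests of both tissues chose the members by being low in detrusor and high in mucosa. These counts and p-values are therefore a description, also for the 3 members called in detrusor.

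Between the injured groups, the members' means lay toward Control with inosine in most cases. The SCI-inosine mean was below the SCI-vehicle mean in detrusor for 117 members (70.9%, against 46.9% of all genes) and above it in mucosa for 136 (82.4%, against 38%). In detrusor it was above the SCI-vehicle mean for the other 48. The median difference between SCI-inosine and SCI-vehicle was -0.12 in detrusor and 0.21 in mucosa, on the log2(CPM + 0.5) scale, against medians of 0.02 and -0.07 over all genes. These comparisons share the SCI-vehicle libraries with the choice of the members, which took libraries that were high in detrusor and low in mucosa.

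By libraries without overlap, fewer members lay toward Control. The SCI-vehicle libraries in these counts chose the members by being high in detrusor and low in mucosa, which tilts the counts upward. SCI-inosine detrusor lay below SCI-vehicle for 22 members (13.3%), against 3.39% of all genes, and SCI-inosine mucosa lay above SCI-vehicle for 31 (18.8%), against 3.13%. Both held for 3 members (1.82%), against 0.0779% of all genes, and for 5, 7 and 6 without detrusor SCI-inosine replicate 1, 2 or 3 and 11 without mucosa replicate 1. The mucosa count was 88 without SCI-inosine replicate 1. Leaving out a library can only keep or raise such counts. Without detrusor SCI-inosine replicate 2 or 3 the detrusor count was 49 or 36. Mucosa libraries moved further below SCI-vehicle without overlap for 2 members, against 8.12% of all genes.

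Of the 3 members that lay toward Control in both tissues, one had 78, 91 and 88.3 CPM in Control detrusor, 107, 105 and 124 CPM in SCI-vehicle and 85.5, 82.9 and 91.3 CPM in SCI-inosine. In mucosa it had 65.8, 65.3 and 68.6 CPM in Control rats, 44.3, 46 and 49.6 CPM in SCI-vehicle and 51.7, 62.4 and 53.7 CPM in SCI-inosine. In detrusor its SCI-inosine libraries overlapped with Control, and in mucosa they lay between the other groups without overlap with either. The remaining 2 had smaller or more variable differences, and the SCI-inosine mucosa libraries of one of them, at 20.3, 20.3 and 23.1 CPM, lay against 20.4, 22.9 and 20.6 CPM in Control against 17.7, 19.9 and 18.5 CPM in SCI-vehicle.

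No member passed the adjusted threshold between SCI-inosine and SCI-vehicle in edgeR's quasi-likelihood test. In detrusor it called 0 members and 0 genes (0%), with 19 members, 17 of them lower with inosine, and 4.38% of all genes at an unadjusted p-value under 0.05, while DESeq2 called 0 members and 0.0635% of all genes. In mucosa it called 0 members and 1 gene (0.00635%). By the same test 45 members, all higher with inosine, and 5.53% of all genes had an unadjusted p-value under 0.05. DESeq2 called 1 member and 0.0826% of all genes. The SCI-vehicle libraries in these tests chose the members by being high in detrusor and low in mucosa. That choice tilts the counts and their directions toward Control, and nothing is read from them.

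The comparison of the tissues in SCI-inosine rats set 6 libraries against each other. These entered the choice of members only through the filter on low values, which 152 members passed in all 18 libraries and 2 in only 3 to 5. The model took its scaling and its estimate of the spread from the other 12 libraries as well. By edgeR's quasi-likelihood test in one model of all 18 libraries, 80 of the 165 members (48.5%) differed between SCI-inosine mucosa and SCI-inosine detrusor at an adjusted p under 0.05, against 42.7% of all 15740 genes. Of these members 65 (39.4%) were higher in detrusor, against 19.9% of all genes, and 15 (9.09%) were higher in mucosa, against 22.8%. The direction depends on how the tissues are scaled, since TMM factors were 0.769 to 0.92 in detrusor and 1.13 to 1.23 in mucosa. With library totals and no TMM, 41 members (24.8%) were higher in detrusor, against 10.4% of all genes, and 41 were higher in mucosa, against 41.7%. The members' median difference, mucosa minus detrusor, was -0.26 with TMM and 0.15 without it, against 0.11 and 0.52 over all genes, so the members lay toward detrusor relative to all genes on both scales while the sign of their own median changed. With the 2 SCI-inosine groups fitted alone, so that no library whose range the rule compared entered, 65 members were called. Of these 54 were higher in detrusor, against 15.2% of all genes, and 11 were higher in mucosa, against 15.3%.

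In Control and SCI-vehicle rats the tissue order of the same genes was different. In the same TMM-scaled model, 91 members (55.2%) differed between the Control tissues, against 44.5% of all genes. They were 62 higher in mucosa, against 23.3% of all genes, and 29 higher in detrusor, against 21.2%. In SCI-vehicle rats 103 members (62.4%) differed, against 47.1% of all genes, of which 8 were higher in mucosa, against 25.4%, and 95 were higher in detrusor, against 21.7%. These libraries chose the members, so both counts are a description and were not compared with that of SCI-inosine by a test. The members' median difference, mucosa minus detrusor, was 0.28 for Control, -0.65 for SCI-vehicle and -0.26 for SCI-inosine on the TMM scale, and 0.83, -0.16 and 0.15 with library totals.

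**Figure D4:**
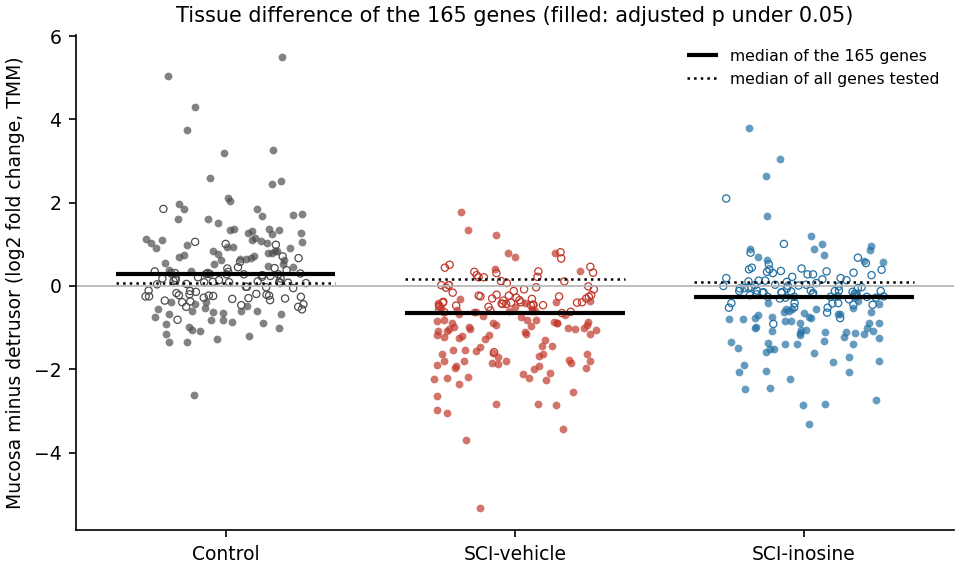
Mucosa minus detrusor as log2 fold change of the TMM-scaled model, in each condition, 1 point per member, with filled points where the adjusted p of edgeR was under 0.05 (91, 103 and 80 members). The solid lines are the members' medians, 0.28, -0.65 and -0.26, and the dotted lines those of all genes tested, 0.07, 0.16 and 0.11; without TMM the medians of SCI-inosine members and all genes are 0.15 and 0.52.

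On the CPM scale of the rule, 70 members had a higher mean in mucosa in Control rats and a higher mean in detrusor in SCI-vehicle rats. These were 42.4% of the members and 6.82% of all genes. For 22 of them (13.3% of the members, against 0.253% of all genes) the tissues did not overlap in either group. The Control and SCI-vehicle values in both counts are those that chose the members. In SCI-inosine rats 43 of the 70 were again higher in detrusor and 27 were higher in mucosa. The mean was higher in mucosa in both Control and SCI-vehicle rats for 69 members, and higher in detrusor in both for 26. All mucosa libraries lay above all detrusor libraries for 115 members with Control rats, 38 with SCI-vehicle and 41 with SCI-inosine rats, against 54.5%, 55% and 44.9% of all genes. All lay below for 12, 72 and 40 members, against 11.7%, 13.3% and 11.2% of all genes. In SCI-inosine rats these were 24.8% of the members above and 24.2% below.

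The tissue difference in SCI-inosine rats was also large for both members named by identifier. ENSRNOG00000000525 was higher in detrusor, at a mucosa minus detrusor log2 fold change of -2.05 ± 0.25 (SE, n = 3 per tissue, adjusted p = 1.58e-05, edgeR). In ENSRNOG00000019472, whose mucosa values rest on few reads, it was -2.48 ± 0.37 (SE, n = 3 per tissue, adjusted p = 9.94e-05, edgeR). In Control rats the same fit gave differences of -0.5 for both genes, which did not pass the threshold (adjusted p = 0.103 and 0.265). The member with 31.7, 68.2 and 49.8 CPM in SCI-inosine detrusor and 9.62, 9.22 and 8.75 CPM in SCI-inosine mucosa had a difference of -2.83 ± 0.28 (SE, adjusted p = 4.4e-06, edgeR), the smallest adjusted p among the members in this comparison.

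The 2 members with a fold change further below 0 had few counts, and one of them, at -3.31 ± 0.69 (SE), had 1.76, 1.84 and 3.02 CPM in SCI-inosine detrusor and 0.26, 0.307 and 0.243 CPM in SCI-inosine mucosa. At the other end, the member furthest toward mucosa, at 3.79 ± 0.82 (SE), had 0.44, 0 and 0 CPM in SCI-inosine detrusor and 3.12, 3.99 and 2.92 CPM in SCI-inosine mucosa, and fitted values of such genes depend on the count added before logs. The third in that direction was better counted in mucosa, with 3.38, 5.22 and 3.96 CPM in detrusor, 19.2, 44.9 and 40.8 CPM in mucosa and a log2 fold change of 2.63 ± 0.32 (SE, adjusted p = 1.58e-05, edgeR).

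After inosine, the median difference from Control of the 66 members with the higher level in Control mucosa was 0.75 in detrusor and -0.31 in mucosa, against 0.37 and -0.24 for the members within 2-fold, on the log2(CPM + 0.5) scale. The detrusor side was kept without overlap by 40 of the 66 (60.6%, against 21.4% of all genes of this kind) and by 36 of the 98 (36.7%, against 7.96%). The mucosa side was kept by 20 (30.3%, against 7.37%) and by 31 (31.6%, against 5.9%), and both by 13 in either kind (against 1.16% and 0.476%). The SCI-inosine libraries lay toward Control of SCI-vehicle in detrusor for 6 of the 66 (against 3.11% of the genes of this kind) and 16 of the 98 (against 3.47%), and in mucosa for 7 (against 1.93%) and 24 (against 3.18%). The Control and SCI-vehicle libraries in these counts chose the members, so the shares of all genes are no test of them. Differences between both kinds were not tested.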

How the data were processed

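The authors prepared stranded libraries from total RNA of microdissected detrusor and mucosa after ribosomal RNA depletion, sequenced 51-base read pairs in 2 flow cell runs and summed each sample's counts over them. The submitters' processing notes name STAR 2.7.10a, featureCounts 2.0.3, SAMtools 1.17, Trim Galore 0.6.10, FastQC 0.11.9, MultiQC 1.13 and the build Rnor_6.0, and the strand setting of the counting is not given in the sources used here. The deposited values are raw read counts on 32754 genes in 18 libraries, with 0 columns unused.

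CPM was the count divided by the library total and multiplied by 1000000. Group means were means of log2(CPM + 0.5). The members, lists and tests were chosen with earlier results of these data known. The ranges of the rule for members used the Control and SCI-vehicle libraries of both tissues, and its filter on low values used all 18 libraries. The members' genes to be printed were fixed by level, size of difference and position of the SCI-inosine libraries, with at most 2 identifiers where names were lacking, and these 2 were picked after their values were seen. Gene lists, tissue markers and promoter motifs set out for this work were not run, because identifiers could not be matched to names.

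Tests were edgeR 4.0.16 quasi-likelihood tests (two-sided, R 4.3.3) on TMM-scaled counts of the 15740 genes above 1 CPM in 3 or more libraries, with Benjamini-Hochberg adjustment over all of them and a threshold of 0.05. Each tissue's 9 libraries entered a single fit, and tissues were compared in a model of 18 libraries with 6 groups. The biological coefficient of variation was 26.5% in detrusor, 20% in mucosa and 23.1% in the joint model, which with 3 libraries per group sets the precision. The labels do not say that replicates were separate animals, while the paper's supplement counts 3 biological replicates per condition. Each p-value sets a difference between groups against the spread between these samples, as estimated over all libraries of the fit. The code was tested on simulated data first. DESeq2 1.42.0 and other filters, scalings, blocks and left-out libraries were alternatives.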

Additional observations from a re-analysis of the deposited data

Results flagged for a closer look

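The 26 members whose SCI-inosine libraries all lay above Control in detrusor and all below Control in mucosa moved in opposite directions in the 2 tissues under the same comparison. The Control libraries are the ones that chose these members, and the difference between the tissues was not tested.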

How the results depend on the processing

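The labels do not state whether the replicate numbers pair samples, and pairing was not tested. Deviations of same-numbered libraries from their group means, over the 15740 genes, correlated at 0.01 to 0.24 between the tissues of a condition (5 of 9 pairs over 0.1), against -0.25 to 0.12 for different numbers (1 of 18 over 0.1). Between the conditions of a tissue they correlated at -0.26 to 0.47 (7 of 18 over 0.1), against -0.42 to 0.39 (10 of 36). With the replicate block, 1 member (0.0508% of all genes) was called in SCI-vehicle against Control and 6 (0.476%) in SCI-inosine against Control in detrusor, and 79 (42.5%) in the SCI-inosine tissue comparison, where a block of condition and number gave 73 (39.2%).

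DESeq2 called 30 members in detrusor (2.13% of all genes) and 20 in mucosa (0.515%) between SCI-vehicle and Control, 21 (2.22%) and 1 (0.108%) between SCI-inosine and Control, and 1 (0.0826%) in mucosa between SCI-inosine and SCI-vehicle. Without a filter on low counts edgeR called 18 (0.807%) and 11 (0.802%) in detrusor against Control. The SCI-inosine members beyond Control in both tissues numbered 17 under TMM and 16 under DESeq2 size factors. The members' median tissue difference in SCI-inosine rats turned to 0.15 with library totals without TMM. The scalings of the SCI-inosine positions, library totals and the block of condition and number were added after the data were seen.

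Leaving out 1 library at a time, the rule took 184 to 327 genes, with 327 without detrusor Control replicate 3, 289 without mucosa Control replicate 1 and 315 without mucosa SCI-vehicle replicate 3. In detrusor the members called ran from 0 to 2 between SCI-vehicle and Control (0% to 0.0318% of all genes). Between SCI-inosine and Control they ran from 0 to 9 there (0% to 0.635%). In the SCI-inosine tissue comparison they ran from 72 to 81 (34.1% to 40.4% of all genes). SCI-inosine libraries lay above Control in detrusor for 77 to 120 members, below Control in mucosa for 51 to 75, beyond both for 27 to 40, below SCI-vehicle in detrusor for 22 to 49, above it in mucosa for 31 to 88 and both for 3 to 11. Leaving out a library eases the conditions on ranges, so these counts of positions could only stay or rise. Of 171 alternatives to counts, 138 stayed within 1.5 times the main count and 33 did not. The 138 include counts that were 0 and stayed 0, as for members called between SCI-inosine and SCI-vehicle in detrusor. They do not by themselves show how stable the results are. With 3 libraries a group, differences within the spread between libraries were not detectable.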
